A study of Mus musculus with 90 samples.

Results

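Chemokine ligands that T cells make were followed through 90 mouse RNA sequencing libraries by their gene symbols. The 8 genes, Ccl1, Ccl3, Ccl4, Ccl5, Ccl20, Ccl22, Xcl1 and Cxcl10, are 8 of the 23420 genes in the count table, and each had a row. The series set regulatory T cells (Tregs) with and without IL-10 and Ebi3 beside each other, and asked what CD8 T cells in tumours look like when Tregs lack these cytokines. Levels are given in CPM, the count divided by the library total and scaled to 1e6, and the term rose or fell is kept for an edgeR adjusted p under 0.05 over all genes tested. Shares of all genes below are shares called by edgeR in this way. Counts of members at an unadjusted p under 0.05, or called by DESeq2 or limma, lack a matching share of all genes. They are given without a reading.

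The Treg series held 30 libraries, 3 in each of 10 groups. Tregs sorted as DN (double negative), IL10 or Ebi3 by the cytokines they expressed came from naive mice, from the non-draining lymph node (ndLN) of tumour-bearing mice and from tumours, and naive effector T cells (Teff) were the tenth group. The labels give the genotype of all these mice as WT. Ebi3 is a chain of the cytokine IL-35. The CD8 series held 60 libraries in 20 groups. Tumour CD8 T cells were sorted by PD-1 and TIM-3 into cells negative for both (NEG), intermediate for PD-1 without TIM-3 (INT), high for PD-1 without TIM-3 (SP) and high for PD-1 with TIM-3 (DP), and 1 more population came from the non-draining lymph node (NDLN). Each population was taken from mice written in the labels as yfp (3 libraries), DKO (4), Il10 (2) and Ebi3L (3), where the design text describes loss of IL-10, of IL-35 or of both within Tregs. The CD8 cells themselves are therefore the cells of mice whose Tregs differ, and the driver of the deletion is not given in the sources used here. A source below is 1 genotype within 1 set of libraries, as the labels name the sets, and each of the 12 sources gave all 5 CD8 populations. The yfp and Ebi3L sources fall in batches 1 and 3 and the DKO and Il10 sources in batches 1 and 2, so genotype and batch are partly confounded. The labels do not say that libraries came from separate animals, so a p-value here reflects the scatter of the libraries themselves, some of which may be technical.

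Chemokines are small secreted proteins that bind G protein-coupled receptors on other leukocytes and draw them along a gradient. Ccl3 and Ccl5 bind Ccr1. Ccl3, Ccl4 and Ccl5 are well known products of activated cytotoxic T cells. Xcl1 attracts cross-presenting dendritic cells through Xcr1, and Cxcl10 is an interferon-induced ligand of Cxcr3. Ccl1 binds Ccr8, a receptor of tumour Tregs. Ccl22 binds Ccr4 and Ccl20 binds Ccr6, and dendritic cells and epithelium respectively are their better known sources.

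On mm10, in GENCODE M21, Ccl5 (chr11:83525778-83530518, minus strand), Ccl3 (chr11:83647844-83649355, minus strand) and Ccl4 (chr11:83662584-83664683, plus strand) lie close together, with 13229 bases between Ccl3 and Ccl4. Ccl1 (chr11:82176657-82305690) is on the same chromosome, and Xcl1 (chr1:164931644-164935527), Ccl20 (chr1:83116766-83119167), Cxcl10 (chr5:92346638-92348889) and Ccl22 (chr8:94745590-94751699) are elsewhere. Xcl1 overlaps Gm20743 and Cxcl10 overlaps Art3 on the opposite strand in GENCODE, and in RefSeq the Ccl4 model overlaps Ccl3 and that of Ccl5 overlaps Gm32650. The sources used here give no strand setting for the counting, and reads of such partners cannot be told apart.

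The 250 bases before the transcription start are shown for 4 members, because Ccl1, Ccl3 and Xcl1 were highest in SP or DP cells whereas Cxcl10 was low in DP cells. They are from RefSeq on GRCm38.p6, written 5′ to 3′ in the direction of the gene. Promoter entries matched 6 of the 8 members, without Ccl4 and Ccl5. Capitals mark matches to 4 motifs searched on both strands: GGG and CC with NNNNN between them for NF-kB, TGANTCA for AP-1, GGAAAA for NFAT, and GAAA repeated with NN between for the interferon-stimulated response element. Overlapping matches are joined.
Ccl1, chr11:82179813-82180062, minus strand: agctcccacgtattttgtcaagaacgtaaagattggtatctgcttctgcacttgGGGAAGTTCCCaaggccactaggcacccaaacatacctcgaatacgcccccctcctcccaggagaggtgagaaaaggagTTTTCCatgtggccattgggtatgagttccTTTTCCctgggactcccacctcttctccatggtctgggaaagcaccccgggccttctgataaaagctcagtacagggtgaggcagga
Ccl3, chr11:83649379-83649628, minus strand: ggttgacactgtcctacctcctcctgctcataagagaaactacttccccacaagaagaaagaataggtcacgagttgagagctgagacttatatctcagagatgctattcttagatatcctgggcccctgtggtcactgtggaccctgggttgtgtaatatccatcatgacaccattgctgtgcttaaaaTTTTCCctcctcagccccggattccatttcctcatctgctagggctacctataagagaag
Xcl1, chr1:164935523-164935772, minus strand: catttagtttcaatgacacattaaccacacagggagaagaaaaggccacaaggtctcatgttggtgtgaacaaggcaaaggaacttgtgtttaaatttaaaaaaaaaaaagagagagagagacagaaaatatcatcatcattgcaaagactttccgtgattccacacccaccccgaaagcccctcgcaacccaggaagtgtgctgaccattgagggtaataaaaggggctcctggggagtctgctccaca
Cxcl10, chr5:92348890-92349139, minus strand: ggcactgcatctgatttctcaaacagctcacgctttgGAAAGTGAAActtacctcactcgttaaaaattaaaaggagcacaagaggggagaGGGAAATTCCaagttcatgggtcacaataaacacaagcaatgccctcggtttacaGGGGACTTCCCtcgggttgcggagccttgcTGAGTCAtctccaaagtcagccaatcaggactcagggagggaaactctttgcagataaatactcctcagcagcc

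The window of Cxcl10 held the interferon motif 213 to 204 bases before the start, a TGANTCA match at 74 to 68 bases before it, and NF-kB matches that began 159 and 104 bases before it. Ccl1 had an NF-kB match starting 196 bases before the start and GGAAAA on the opposite strand at 117 to 112 and at 87 to 82 bases. Ccl3 had a single GGAAAA match, at 60 to 55 bases before the start, and in Xcl1 none of these letters was found. Among the 32851 RefSeq windows of the same length, 45.8% held the NF-kB letters, 20.4% GGAAAA, 6.75% TGANTCA and 2.98% the interferon motif. A match is a description of the letters and not a bound site.

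Library totals ran from 9.73 to 20.2 M counts in the Treg series and from 19.2 to 47.7 M in the CD8 series, which puts the level of 3 counts at 0.148 to 0.308 and 0.0629 to 0.156 CPM. Intervals and floors cover counting error only. Cd8a and Cd8b1 with Ncr1 and Klrb1c summed to a mean of 19.3 to 37.2 CPM in the Treg-series groups and 1873 to 3548 CPM in the CD8 groups, and Cd4 with Foxp3 summed to at most 1.78 CPM on average in any CD8 group. Myeloid markers, 11 of 12 with a row, summed to 225 to 270 CPM in tumour Treg groups, 132 to 234 in node Treg groups and 84.7 to 912 in CD8 groups. Cst3, which many cells express, made up most of these sums: without it they averaged at most 15.3 CPM in the tumour Treg groups and 3.01 to 73.5 CPM in the node groups. Lyz2 stood at 190 CPM in 1 node Ebi3 library. Pax5 of B cells was at 0 in all 90 libraries, and Cd79b made up most of the mean B cell sum in every group but naive Teff. The other 5 B cell genes summed to 6.98 to 14.9 CPM in node IL10 Tregs and to at most 14.8 CPM in naive DN Tregs. In these bulk libraries, fewer cells that make a ligand and less RNA per cell cannot be told apart.

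**Figure D1:**
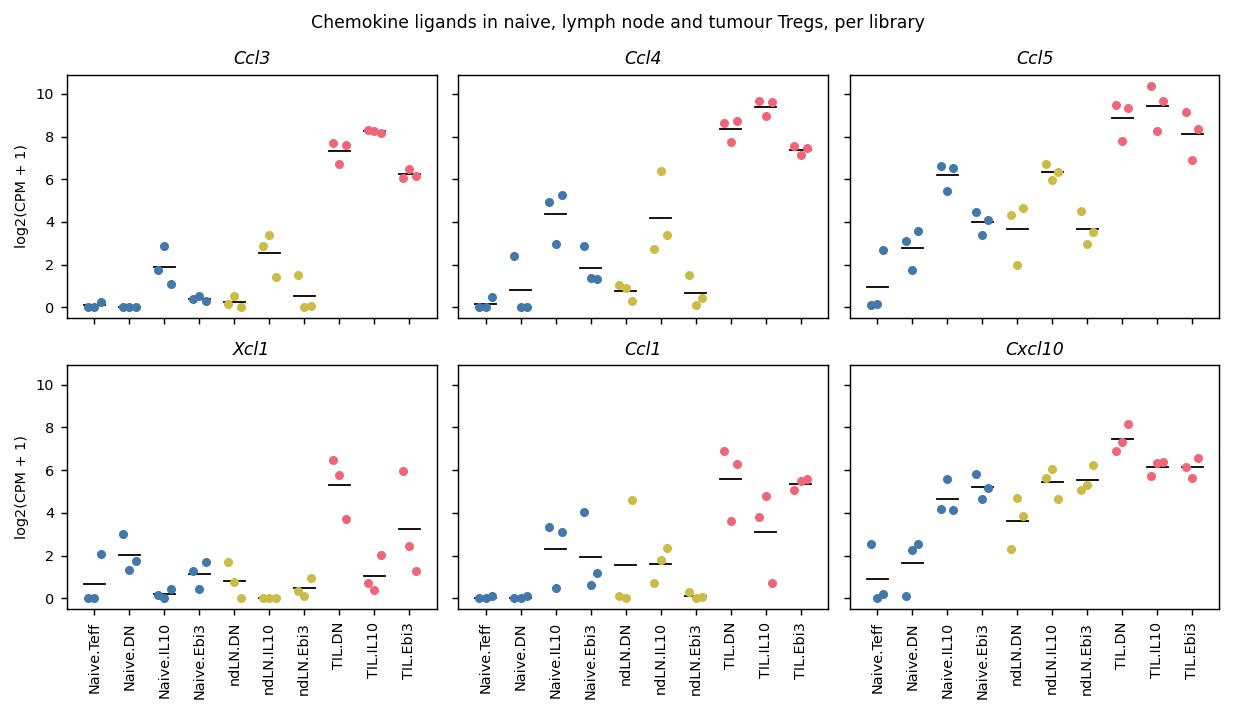
Levels of 6 chemokine ligands in the 30 Treg-series libraries, as log2(CPM + 1). Each dot is a library, black lines are group means (n = 3), and blue, yellow and red are naive, lymph node and tumour cells. Ccl3, Ccl4 and Ccl5 are highest in the tumour groups, whereas Cxcl10 is also present in IL10 and Ebi3 Tregs of naive mice and nodes.

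Tumour Tregs of all 3 kinds had far more Ccl3, Ccl4 and Ccl5 RNA than the same kind of Treg in the node. Ccl3, a ligand of Ccr1, stood at 204, 105 and 194 CPM in the tumour DN libraries of batches 1, 2 and 3, and at 0.132, 0.439 and 0 CPM in node DN libraries. It stood at 316, 309.9 and 285 CPM in tumour IL10 Tregs against 6.35, 9.39 and 1.72 CPM in the node. In Ebi3 Tregs it was 65.3, 89.1 and 70.1 CPM in tumours and 1.84, 0 and 0.0495 CPM in nodes. Every tumour library was above every node library of its kind. Ccl3 rose by 10.15 ± 0.95 (log2 fold change ± SE, adjusted p = 1.7e-07) in DN, 6.02 ± 0.69 (adjusted p = 4.9e-06) in IL10 and 6.98 ± 0.78 (adjusted p = 2.9e-06) in Ebi3 Tregs, with edgeR's quasi-likelihood test.

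Ccl4, the neighbouring gene, was 402, 212 and 418 CPM in tumour DN Tregs and 1.06, 0.877 and 0.225 CPM in the node. In IL10 Tregs it was 801, 498 and 776 CPM against 5.71, 83.2 and 9.6 CPM, so that 1 node library stood well above the other two. In Ebi3 Tregs it was 189, 139 and 174 CPM against 1.84, 0.0898 and 0.346 CPM. The groups did not overlap, and Ccl4 rose by 9.10 ± 1.30 in DN, 4.38 ± 0.97 in IL10 and 7.91 ± 1.24 in Ebi3 Tregs. The IL10 call (adjusted p = 0.0055) was lost without batch 1 or batch 3, with an adjusted p of at most 0.217.

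Ccl5, which recruits T cells and myeloid cells, was the member with RNA in all 30 Treg-series libraries. It was 718, 224 and 654 CPM in tumour DN, 1335, 301 and 819.6 CPM in tumour IL10 and 574, 117 and 325 CPM in tumour Ebi3 Tregs. Batch 2 held the lowest value of each. The node libraries gave 19.3, 2.98 and 24 CPM in DN, 104, 62.3 and 79.8 CPM in IL10 and 21.5, 6.92 and 10.6 CPM in Ebi3 Tregs. Ccl5 rose by 5.32 ± 0.57, 3.23 ± 0.51 and 4.76 ± 0.56 in that order, and passed the test in every alternative fit.

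Of the other members, Xcl1, Ccl1 and Cxcl10 were called in at least 1 kind of Treg. Xcl1, the ligand of Xcr1, was 87.3, 52.9 and 12.1 CPM in tumour DN Tregs against 2.25, 0.702 and 0 CPM in the node, and rose by 6.15 ± 1.57 (adjusted p = 0.0067, and 0.113 without batch 2). In tumour Ebi3 Tregs it was 60.7, 4.39 and 1.46 CPM against 0.279, 0.0898 and 0.94 CPM, a rise of 5.60 ± 1.62 (adjusted p = 0.029) in which the first library was far above the other two. It was lost in 5 of 7 alternatives, reaching an adjusted p of 0.433 when a batch was left out and 0.054 without the batch block, and lost also with no filter on low counts and without the node Ebi3 library of highest Lyz2. In IL10 Tregs Xcl1 was 0.65, 0.319 and 3.08 CPM in tumours and 0 in all 3 node libraries. Its tumour mean was at least 6.90-fold higher against a floor of 3 counts per library, and the difference did not pass the test (adjusted p = 0.078).

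Ccl1, the Ccr8 ligand, was 32.3, 43.6 and 46.6 CPM in tumour Ebi3 Tregs and 0.224, 0 and 0.0495 CPM in node Ebi3 Tregs, and rose by 9.13 ± 2.22 (adjusted p = 0.0090, and 0.065 without the node Ebi3 library of highest Lyz2). In DN Tregs the tumour libraries gave 119, 11.4 and 76.3 CPM and the node libraries 0.0662, 0 and 23.3 CPM, which overlap, and the difference of 3.38 ± 1.58 had an adjusted p of 0.135. Cxcl10, the interferon-induced Cxcr3 ligand, was 118, 157 and 288 CPM in tumour DN Tregs against 3.97, 25.3 and 13.3 CPM in the node, a rise of 3.91 ± 0.92 (adjusted p = 0.0036, and 0.095 without batch 3). Ccl20 and Ccl22 stood at or below 1.01 CPM in every tumour Treg library.

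Counted over the 8 members, 5 rose in DN Tregs, 3 in IL10 Tregs and 5 in Ebi3 Tregs, where 12.9%, 5.56% and 6.24% of the 12907 genes tested rose. The median log2 difference of the members was 4.61, 2.95 and 5.18 with members at 0 in a group set to the bound of 3 counts per library (4.61, 3.17 and 6.12 as fitted), beside 0.01, -0.02 and -0.04 over all genes. A member can pass the filter on low counts through the tumour libraries alone, so these counts and medians are given without a reading. The same holds for the counts of members in the node and naive comparisons below, through a group where a member is high. Myeloid marker sums averaged 225, 270 and 256 CPM in the tumour groups and 132, 208 and 234 CPM in the node groups, and their part in these differences was not tested. Without Cst3 the sums were 5.22 to 10.24 CPM in tumour and 1.93 to 4.23 CPM in node DN Tregs, without overlap. They were 8.0 to 19.9 against 19.05 to 28.9 CPM in IL10 and 8.01 to 10.5 against 3.14 to 207 CPM in Ebi3 Tregs. Of the list, Csf1r, C1qa and C1qb had means of at most 0.355 CPM in tumour Tregs, and the other genes made up most of the tumour sums without Cst3.

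The change from node to tumour was also compared between kinds of Treg. The IL10 minus DN value was -4.13 ± 1.21 for Ccl3 on the log2 scale (adjusted p = 0.060), -4.72 ± 1.54 for Ccl4 (adjusted p = 0.092), -2.08 ± 0.69 for Ccl5 (adjusted p = 0.094) and -3.12 ± 1.18 for Cxcl10 (adjusted p = 0.147). The Ebi3 minus DN value of Cxcl10 was -3.16 ± 1.18 (adjusted p = 0.233). By edgeR 0 members were called in either contrast, with 4 and 3 at an unadjusted p under 0.05. DESeq2 called 0, and limma 0 of the 5 members in the authors' deposited values. EdgeR called 4.49% of all genes for IL10 against DN and 1.61% for Ebi3 against DN. Both contrasts use the same DN libraries.

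Node IL10 Tregs had more Ccl5, Ccl3 and Ccl4 than node DN and node Ebi3 Tregs. Against DN Tregs Ccl5 rose by 2.71 ± 0.52 (adjusted p = 0.00096), Ccl3 by 4.98 ± 1.01 (adjusted p = 0.0018) and Ccl4 by 5.79 ± 1.27 (adjusted p = 0.0034), 3 members where 8.81% of genes rose. Against Ebi3 Tregs Ccl5 rose by 2.89 ± 0.53 (adjusted p = 0.0017), Ccl3 by 3.05 ± 0.78 (adjusted p = 0.026) and Ccl4 by 5.64 ± 1.23 (adjusted p = 0.0083), 3 members where 3.13% of genes rose. For Ccl3 the IL10 and Ebi3 libraries overlapped, since 1 Ebi3 library at 1.84 CPM was above 1 IL10 library at 1.72 CPM. Without the batch block Ccl5 lost both calls (adjusted p = 0.108 and 0.172) and Ccl3 lost the call against Ebi3 (adjusted p = 0.053). Ccl4 against DN lost its call without batch 3 (adjusted p = 0.064), and against Ebi3 both Ccl3 and Ccl4 lost theirs without batch 2, without batch 3 or without the library of highest Lyz2, with adjusted p of at most 0.176 and 0.179. Without Cst3 the myeloid markers summed to 19.05 to 28.9 CPM in node IL10 and 1.93 to 4.23 CPM in node DN Tregs, without overlap, and Lyz2 was 5.48 to 15.2 CPM in the former and 0 in all 3 of the latter. Their part in the IL10 differences was not tested. For node Ebi3 against DN Tregs edgeR called 0 members, DESeq2 1 and limma 0 of the 5 it could test. By edgeR 2 of 8 had an unadjusted p under 0.05, where 6.96% of genes rose and 6.07% fell.

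Cxcl10 set the node groups in another order. It was 48.1, 65.4 and 23.9 CPM in IL10, 33.1, 38.4 and 74.9 CPM in Ebi3 and 3.97, 25.3 and 13.3 CPM in DN Tregs. The differences from DN were 1.79 ± 0.85 for both kinds, with adjusted p = 0.173 and 0.191. Between IL10 and Ebi3 Tregs of the node it was 0.00 ± 0.83 (adjusted p = 1.0).

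Naive mice, which carried no tumour, gave the same contrast for Ccl5. Naive IL10 Tregs had 97.7, 42.2 and 92.4 CPM of Ccl5, naive Ebi3 Tregs 20.8, 9.53 and 16.1, naive DN Tregs 7.52, 2.31 and 11 and Teff 0.0682, 0.103 and 5.43 CPM. Ccl5 rose by 3.57 ± 0.56 (adjusted p = 9.0e-05) in IL10 against DN Tregs and by 2.39 ± 0.52 (adjusted p = 0.0067) in IL10 against Ebi3 Tregs, the latter lost without the batch block (adjusted p = 0.220), without batch 2 (0.054) and by limma. In naive cells the myeloid markers without Cst3 summed to 8.90 to 34.2 CPM in IL10, 3.69 to 29.4 CPM in Ebi3 and 0.711 to 4.92 CPM in DN Tregs. Their part in the naive differences of Ccl5 and the other members was not tested. The Ccl5 difference of Ebi3 from DN Tregs was 1.18 ± 0.55 (adjusted p = 0.189), and DN Tregs and Teff overlapped.

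Ccl3 was 2.32, 6.35 and 1.12 CPM in naive IL10 Tregs and 0 in all 3 naive DN libraries. Its mean was at least 15.1-fold higher against the floor of 3 counts per library (adjusted p = 0.0029). Ccl4 was 29.7, 6.72 and 36.9 CPM in naive IL10 and 4.36, 0 and 0 CPM in naive DN Tregs, and rose by 4.07 ± 1.12 (adjusted p = 0.015, and 0.27 without batch 3). Cxcl10 was 17.2, 47.1 and 16.4 CPM in naive IL10, 55.9, 24.1 and 35.1 CPM in naive Ebi3 and 0.0632, 3.82 and 4.92 CPM in naive DN Tregs. It rose by 3.24 ± 0.95 (adjusted p = 0.022) in IL10 and by 3.80 ± 0.97 (adjusted p = 0.012) in Ebi3 against DN Tregs. The IL10 call was lost without batch 2 or batch 3 and the Ebi3 call without batch 3, with adjusted p of at most 0.121 and 0.089.

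Xcl1 in naive cells stood at 7.14, 1.51 and 2.33 CPM in DN against 0.126, 0 and 0.351 CPM in IL10 Tregs, a difference of -4.50 ± 1.69 that did not pass (adjusted p = 0.072). Ccl20, the Ccr6 ligand, had its highest group mean in naive IL10 Tregs, at 3.77, 3.41 and 6.38 CPM, and was 0 in 17 of the 30 libraries. In naive cells 4 members rose in IL10 against DN Tregs (9.98% of genes rose), 1 in Ebi3 against DN (7.4%) and 1 in IL10 against Ebi3 (3.29%). For DN Tregs against Teff edgeR called 0 members, DESeq2 1 and limma 1 of the 5 it could test. By edgeR 2 of 8 had an unadjusted p under 0.05, where 8.79% of genes rose and 3.42% fell.

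Nodes of tumour-bearing mice were also set against naive cells. In this comparison edgeR called 0 of 24 pairs of member and Treg kind and DESeq2 1, and 5 pairs had an unadjusted p under 0.05. Limma called 0 among the 5 members it could test. The share of all genes called by edgeR was 0.0852% in DN, 0.0542% in IL10 and 0.00775% in Ebi3 Tregs. Ccl5 means were 82.0 ± 20.9 CPM (SD, n = 3) in node and 77.5 ± 30.6 CPM in naive IL10 Tregs, and 13 ± 7.59 and 15.5 ± 5.68 CPM in Ebi3 Tregs.

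Among tumour Tregs no member passed the edgeR test, although some groups did not overlap. Ccl3 averaged 303 ± 16.5 CPM in IL10, 168 ± 54.2 in DN and 74.8 ± 12.6 in Ebi3 Tregs, without overlap between any pair of groups. The difference of IL10 from Ebi3 Tregs was 2.10 ± 0.56 (adjusted p = 0.052, and 0.045 to 0.362 over its alternatives). That of Ccl4 was 2.11 ± 0.85 (adjusted p = 0.229) and that of Ccl5 1.36 ± 0.47 (adjusted p = 0.149). Ccl4 averaged 692 ± 168, 344 ± 115 and 167 ± 25.9 CPM in IL10, DN and Ebi3 Tregs, the same order as Ccl3.

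Xcl1 had its lowest mean in tumour IL10 Tregs, at 1.35 CPM beside 22.2 in Ebi3 and 50.8 in DN Tregs. Every IL10 library was at or below 3.08 CPM and every DN library at or above 12.1 CPM, and 1 Ebi3 library at 1.46 CPM lay within the IL10 range. The difference of IL10 from DN Tregs of -5.70 ± 1.57 had an adjusted p of 0.113 by edgeR and 0.0095 by DESeq2, and 0.0011 to 0.634 when a batch was left out. Over the 3 comparisons of tumour Tregs edgeR called 0 of 24 pairs and DESeq2 1, and 7 pairs had an unadjusted p under 0.05. Limma called 0, but it could test only the 5 members in the authors' deposited values, which leave out Xcl1. The share of genes called by edgeR was 0.837% for IL10 against DN, 0.713% for Ebi3 against DN and 2.84% for IL10 against Ebi3.

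Per kilobase of exon, which allows levels of different genes to be set side by side, tumour DN Tregs held 554 CPM per kb of Ccl5, 521 of Ccl4, 219 of Ccl3, 97.1 of Xcl1, 83.4 of Cxcl10 and 29.0 of Ccl1. Tumour IL10 Tregs held 1048 CPM per kb of Ccl4, 852 of Ccl5 and 396 of Ccl3, and only 2.58 of Xcl1. The 8 ligands summed to 1504 CPM per kb in DN, 2337 in IL10 and 796 in Ebi3 Tregs of tumours, and to 28.8, 165 and 38.1 CPM per kb in the node, in the same order. In the node Cxcl10 made up 56.9% of the sum in Ebi3 Tregs and 12.3% in IL10 Tregs. The exon lengths are those of all transcripts of a gene together, 2369 bases for Ccl1 and 2252 for Cxcl10, which is the whole span of that gene. The levels per kilobase of Ccl1 and Cxcl10, and the shares of Cxcl10, are therefore low estimates. The lengths of Ccl5, 960 bases, and Ccl4, 660 bases, are also of all transcripts together. The order of Ccl5 and Ccl4 per kilobase depends on these lengths.

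**Figure D2:**
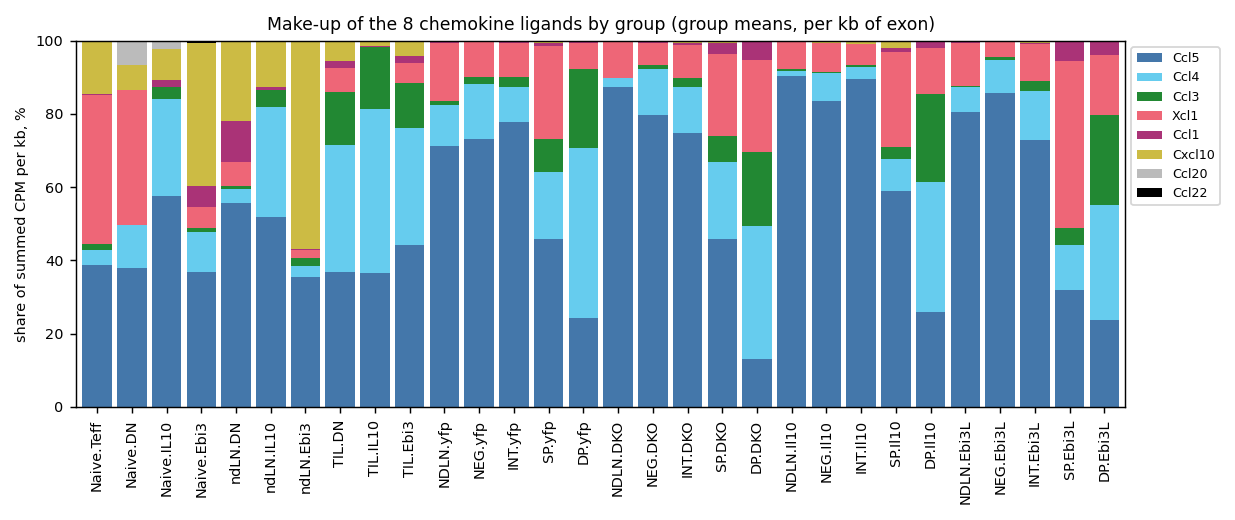
Share of each of the 8 ligands in their summed level per kilobase of exon, in percent, by group mean. Stacked bars show the 10 Treg-series groups on the left and the 20 CD8 groups by genotype on the right. Ccl5 makes up most of the sum in NDLN, NEG and INT cells, and Ccl4 has the largest share in the DP groups, such as 46.5% in yfp.

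The receptors of these ligands moved with site as well. Of the 8 receptor genes, 7 rose and 0 fell in tumour DN Tregs, 2 rose and 2 fell in IL10 Tregs, and 4 rose and 1 fell in Ebi3 Tregs. Of all genes tested 12.9%, 5.56% and 6.24% rose and 10.5%, 3.77% and 4.01% fell in the same order. Ccr1, the receptor of Ccl3 and Ccl5, rose by 6.02 ± 0.80, 2.99 ± 0.65 and 6.81 ± 0.82. Ccr6, the Ccl20 receptor, fell by 2.06 ± 0.55 in IL10 and by 2.00 ± 0.53 in Ebi3 Tregs. In the node 6 of 8 receptors rose in IL10 against DN Tregs and 6 in Ebi3 against DN Tregs, where 8.81% and 6.96% of all genes rose. Medians over the 8 receptors were 3.34, 0.71 and 1.42 for the 3 site comparisons.

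Few other chemokine ligands were measured in Tregs, as 10 of 27 passed the filter on low counts. In DN Tregs 3 of them rose, Ccl9, Ccl6 and Cxcl2, in IL10 Tregs 1, Ccl9, and in Ebi3 Tregs 1, Cxcl2. Ccl9, a ligand of Ccr1, was 136, 38.5 and 1.22 CPM in tumour IL10 Tregs and 0 in the 3 node libraries (adjusted p = 0.0020). Cxcl2, a neutrophil attractant, was 6.66, 2.92 and 2.32 CPM in tumour Ebi3 Tregs and 0 in the 3 node libraries (adjusted p = 0.0068). Medians with genes at 0 set to their bound were 1.14, 0.35 and 1.05 (4.99, 1.52 and 1.05 as fitted). Such genes can also pass the filter through the tumour libraries alone, so their counts and medians are given without a reading. Of 22 transcription factors that act on chemokine genes, 9 rose and 1 fell in DN, 7 rose and 3 fell in IL10 and 8 rose and 1 fell in Ebi3 Tregs, beside the shares of all genes given for the receptors. Fosl2, an AP-1 member, rose by 5.11 ± 0.84, 3.41 ± 0.76 and 4.21 ± 0.81, and Tbx21, which encodes T-bet, rose by 2.99 ± 0.43 in DN and 2.91 ± 0.43 in Ebi3 Tregs. Medians over the factors were 0.36, 0.35 and 0.32. Tbx21 also rose by 1.84 ± 0.42 in node IL10 and by 4.31 ± 0.48 in naive IL10 against DN Tregs.

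**Figure D3:**
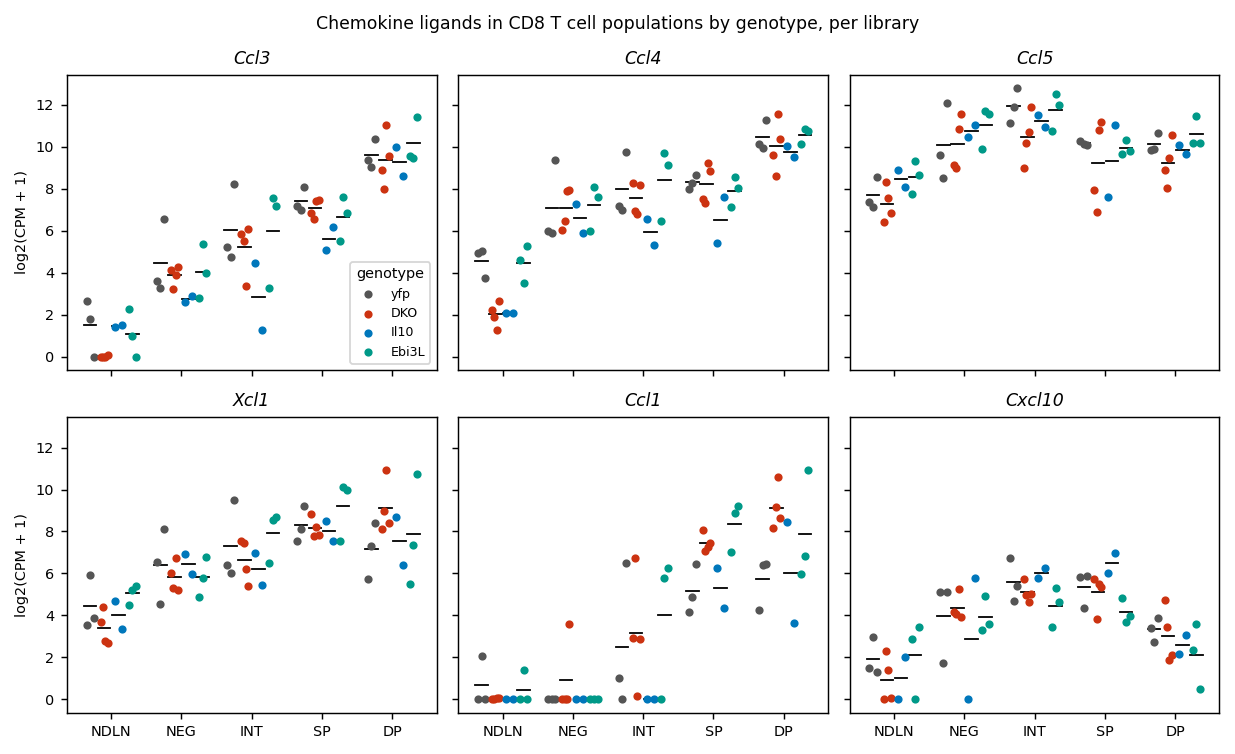
Levels of 6 chemokine ligands in the 60 CD8 libraries, as log2(CPM + 1), by population and genotype. Each dot is a library and each black line the mean of a group of 3 yfp, 4 DKO, 2 Il10 or 3 Ebi3L libraries. Ccl3 and Ccl4 are highest in DP cells, Ccl5 in INT cells, and Cxcl10 is lower in DP than in INT and SP cells.

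In CD8 T cells the ligands fell into different patterns over the populations, and these are given within the 12 sources and then by genotype. Ccl3 was higher in DP than in SP cells in 12 of 12 sources, with a median difference of 2.23 and a range of 1.44 to 4.91 in log2(CPM + 1), and Ccl4 likewise in 12 of 12, with a median of 2.23 and a range of 1.32 to 4.62. Cxcl10 was lower in DP than in SP cells in 12 of 12 sources, with a median of -2.45 and a range of -3.94 to -0.12. Of 11240 genes with a mean of at least 1 CPM, 3.13% were higher and 6.38% lower in DP than in SP cells in every source. Against INT cells, DP cells were higher in Ccl3 and Ccl4 (medians 4.23 and 2.57) and lower in Ccl5 and Cxcl10 (medians -1.33 and -2.34) in 12 of 12 sources, where 14.8% of genes were higher and 15.4% lower in all. Against NEG cells, DP cells were higher in Ccl1, Ccl3 and Ccl4 in 12 of 12 sources, where 18.2% of genes were. The counts are descriptions over sources, each from 1 library of each population.

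Levels of other cell types' markers also varied over these populations. Myeloid marker sums averaged 128 CPM in NEG, 309 in SP and 261 in DP cells of yfp mice, 116, 328 and 243 CPM in DKO and 161, 912 and 557 CPM in Ebi3L mice. Without Cst3 they were 14.2, 30.4 and 13.2 CPM in yfp, 31.9, 50.6 and 37.7 CPM in DKO and 22.5, 48.4 and 38.2 CPM in Ebi3L mice. In NDLN cells the sums without Cst3 were 7.33, 5.59 and 16.3 CPM in yfp, DKO and Ebi3L mice. In INT cells they were 57.3, 50.8 and 37.6 CPM in the same order. The yfp INT libraries, at 51.6 to 67.0 CPM, were above all yfp libraries of the other populations, of which SP was highest at 22.3 to 35.3 CPM. Cd79b, a B cell receptor chain, averaged 40.8 CPM in NEG and 0.538 CPM in DP cells of yfp mice, 32.6 and 5.45 CPM in DKO and 40.6 and 8.18 CPM in Ebi3L mice. The part of these markers in the differences between populations was not tested.

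**Figure D4:**
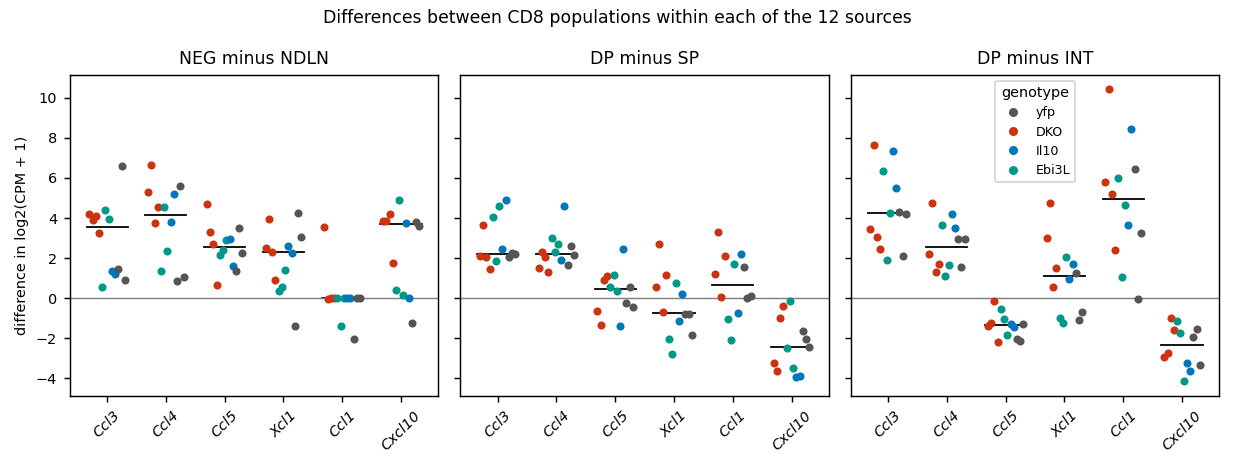
Differences in log2(CPM + 1) between CD8 populations within each of the 12 sources, for NEG minus NDLN, DP minus SP and DP minus INT cells. Dots are sources coloured by genotype, black lines are medians, and the grey line is no difference. Ccl3 and Ccl4 are above the line in all 12 sources in each panel, and Cxcl10 is below it in all 12 in the DP minus SP and DP minus INT panels.

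Ccl3 in yfp cells was 5.35, 2.51 and 0 CPM in NDLN, 11.1, 8.8 and 94.3 in NEG, 35.9, 25.7 and 299 in INT, 144, 126 and 273 in SP and 671, 522 and 1309 CPM in DP cells. In each tumour population the third source, of batch 3, was highest. Ccl3 rose by 5.06 ± 1.24 in DP against NEG yfp cells (adjusted p = 0.011, lost without the first or the second source, with an adjusted p of at most 0.134). In DKO cells DP libraries gave 482, 257, 2096 and 759 CPM, NEG libraries 16.4, 8.5, 14 and 18.3 CPM, and the rise was 5.87 ± 0.63 (adjusted p = 3.3e-06). In Ebi3L cells DP libraries gave 763, 711 and 2759.5 CPM and NEG libraries 6.01, 41.0 and 14.7 CPM, a rise of 6.29 ± 1.38 (adjusted p = 0.0064, lost without the second or the third source, at most 0.083). Ccl4 rose with it, by 3.15 ± 0.82 in yfp (adjusted p = 0.014, lost without the first or the second source, at most 0.208), 2.99 ± 0.57 in DKO (adjusted p = 6.5e-04) and 3.40 ± 0.65 in Ebi3L cells (adjusted p = 0.0028, and 0.096 without the third source). In the 2 Il10 libraries of DP cells Ccl3 was 1004 and 388 CPM, within the range of the other genotypes.

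The step from SP to DP cells was called for Ccl3 and Ccl4 in DKO cells and for Ccl4 in Ebi3L cells. In DKO cells Ccl3 was 115, 94.1, 168 and 176 CPM in SP cells, below all 4 DP libraries, and rose by 2.63 ± 0.54 (adjusted p = 0.0076, and 0.119 without the fourth source), a call also lost by limma on the deposited values. Ccl4 was 185, 158, 609.8 and 462 CPM in SP and 784, 396, 3024 and 1326 CPM in DP cells of DKO mice, and rose by 1.94 ± 0.55 (adjusted p = 0.037), although the groups overlap. That call was lost in every fit that left out a source, at most 0.161, with no filter on low counts and by limma. In Ebi3L cells Ccl4 was 141, 372 and 264 CPM in SP and 1121, 1833 and 1733 CPM in DP cells, and rose by 2.80 ± 0.63 (adjusted p = 0.045). That call was lost with source as a block (adjusted p = 0.058) and in every fit that left out a source, at most 0.481. In yfp cells it was 252, 307 and 408 CPM in SP and 1127, 986 and 2499 CPM in DP cells, and the difference of 2.16 ± 0.77 did not pass (adjusted p = 0.302).

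Tumour NEG cells already differed from node CD8 cells. Ccl3, Ccl4 and Ccl5 were higher in NEG than in NDLN cells in 12 of 12 sources, with medians of 3.58, 4.18 and 2.55, where 2.36% of genes were higher in every source. In DKO cells Ccl3 had 1279 counts in the 4 NEG libraries and 1 count in the 4 NDLN libraries, a ratio of 1247 with a 95% counting interval of 223 to 49275 (adjusted p = 6.6e-05). Ccl4 of DKO cells was 3.75, 2.76, 1.45 and 5.31 CPM in NDLN and 64.0, 87.2, 241 and 247 CPM in NEG cells, and rose by 5.59 ± 0.67 (adjusted p = 1.1e-04). Xcl1 rose by 2.59 ± 0.71 (adjusted p = 0.043) and Cxcl10 by 4.06 ± 1.06 (adjusted p = 0.033) in the same comparison. Xcl1 lost its call in each fit that left out a source, at most 0.146, and Cxcl10 in 3 of 4, at most 0.168, and both lost it with no filter on low counts. Ccl5 rose by 2.74 ± 0.57 in yfp cells (adjusted p = 0.048), although the groups overlap, and by 2.56 ± 0.38 in Ebi3L cells (adjusted p = 0.0062), and its 2.74 ± 0.98 in DKO cells did not pass (adjusted p = 0.133). With source as a block the adjusted p was 0.059 in yfp and 0.043 in DKO cells. The yfp call was lost in each fit that left out a source, at most 0.407, and with no filter on low counts, and the Ebi3L call without the first or the second, at most 0.076.

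Ccl5 had its highest mean in INT cells in each of the 4 genotypes, and not in DP cells. In yfp cells it was 164, 141 and 381 CPM in NDLN, 792, 363 and 4309 in NEG, 2243, 3821 and 7172 in INT, 1261, 1137 and 1089 in SP and 928, 949 and 1617 CPM in DP cells. The INT libraries were all above the SP and DP libraries. From INT to SP Ccl5 fell by 1.84 ± 0.37 in Ebi3L cells (adjusted p = 0.019, lost without the first or the second source, at most 0.124), at 1725, 5804 and 4141 CPM in INT and 806, 1279 and 894 CPM in SP cells. The same step was -1.67 ± 0.55 in yfp cells (adjusted p = 0.111). The DKO libraries spread more, at 516, 1159.7, 1655 and 3857 CPM in INT and 248, 119, 1796 and 2342 CPM in SP cells.

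Xcl1 was 63.9, 38.8, 106 and 35.8 CPM in NEG and 274, 497, 1961 and 341 CPM in DP cells of DKO mice, and rose by 3.63 ± 0.71 (adjusted p = 8.3e-04). In Ebi3L cells it was 28.1, 53.3 and 111 CPM in NEG and 44.4, 162 and 1725 CPM in DP cells, which overlap, with a rise of 2.94 ± 0.91 (adjusted p = 0.033) that was lost in each fit that left out a source, at most 0.133. In yfp cells it was 93.7, 22.1 and 272 CPM in NEG and 52.8, 157 and 342 CPM in DP cells and did not pass. The difference between the DKO and the yfp step from NEG to DP was 2.59 ± 1.06, with an adjusted p of 1.0. Between SP and DP cells Xcl1 went up in 5 and down in 7 of 12 sources.

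Ccl1 was at or under 3.12 CPM in every NDLN library, and ran from 0 to 107 CPM in INT cells. It was 0 in all 3 NEG libraries of yfp mice and of Ebi3L mice, and in 3 of 4 of DKO mice. In DP cells it was 18.4, 84.8 and 87.6 CPM in yfp, 283, 571, 1529.7 and 404 CPM in DKO, 61.9, 112 and 1925 CPM in Ebi3L and 346 and 11.5 CPM in Il10 mice. Against a floor of 3 counts per library its group mean was at least 585-fold higher in DP than NEG cells in yfp mice (adjusted p = 0.036). In Ebi3L mice the mean was at least 6411-fold higher (adjusted p = 0.0047). The Ebi3L mean was carried by the library at 1925 CPM, and the folds do not hold for each library. Ccl1 rose by 7.80 ± 1.80 in DKO mice (adjusted p = 0.0030). Leaving out the first yfp source or the filter on low counts in yfp, or leaving out the second or the third Ebi3L source, ended the call, with adjusted p of at most 0.188 and 0.094.

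In the comparison of DP with NEG cells 3 members rose in yfp cells, where 17.2% of genes rose, 4 in DKO cells (21.4%) and 4 in Ebi3L cells (17.6%). The members that passed the filter on low counts were 7, 6 and 7 of the 8. A member can pass that filter through the libraries of 1 population alone, such as DP. The counts for this and the following comparisons are therefore given without a reading. For NEG against NDLN cells 1 rose in yfp (1.32%), 4 in DKO (4.16%) and 1 in Ebi3L cells (1.22%). For DP against SP cells 2 rose in DKO (3.77%) and 1 in Ebi3L cells (1.24%), and 0 were called in yfp cells (1.21% in either direction). For SP against INT cells 1 fell in Ebi3L (3.15%), and 0 were called in yfp (4.89%) and DKO cells (2.01%). For INT against NEG cells 0 were called in yfp (0.938%), DKO (0.0395%) and Ebi3L cells (1.76%), with 2, 1 and 3 members at an unadjusted p under 0.05. For the other comparisons without a call that number was 2 for DP against SP in yfp cells and 1 each for SP against INT in yfp and DKO cells. In these 6 comparisons limma called 0 members and DESeq2 called 1 in each of the yfp steps from NEG to INT and from INT to SP, 2 from NEG to INT in Ebi3L cells and 0 in the other three. Over the 5 comparisons of a genotype DESeq2 called 8 pairs in yfp and 12 in Ebi3L cells, where edgeR called 4 and 7.

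Cxcl10 had higher means in INT and SP cells than in NDLN and DP cells. In yfp cells it was 1.78, 6.77 and 1.43 CPM in NDLN, 33.4, 2.31 and 33.1 in NEG, 104, 24.8 and 40.7 in INT, 55.6, 19.7 and 58.7 in SP and 9.57, 5.69 and 13.5 CPM in DP cells. All 3 DP libraries were below all 3 SP libraries, and the difference of -2.13 ± 0.96 in that genotype alone did not pass (adjusted p = 0.418). Against NEG cells, Cxcl10 was lower in DP cells in 9 and higher in 3 of 12 sources, and was not called in yfp, DKO or Ebi3L cells. Irf1, an interferon-induced factor, fell by 1.70 ± 0.21 in DP against NEG yfp cells and by 2.49 ± 0.15 in Ebi3L cells. Cxcr3, the receptor of Cxcl10, fell by 1.95 ± 0.50 in yfp and by 2.98 ± 0.26 in Ebi3L cells in the same comparison. In DKO cells neither gene was among the called genes of its list with the largest change, and their values are not given. Irf8, another of the 22 transcription factors, rose in DP against NEG cells, by 2.86 ± 0.86 in yfp, 2.68 ± 0.28 in DKO and 3.04 ± 0.25 in Ebi3L cells. Of these factors 5 rose and 6 fell in yfp, and 5 rose and 7 fell in Ebi3L cells. A link of Irf1, Irf8 or Cxcr3 to the Cxcl10 level was not tested.

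Ccl20 was 0 in 59 of 60 CD8 libraries and Ccl22 in 47. Ccl22 stood at 167 CPM in 1 INT library of Ebi3L mice, the third, and at 0 in both others of that group. That library's myeloid marker sum was 340 CPM, beside 119 and 352 CPM in the other two. In SP cells of Ebi3L mice it was 9.05, 19.7 and 0 CPM and in those of DKO mice 3.99, 2.83, 1.75 and 0 CPM. Every NEG library was at 0.

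Receptors of the ligands were also measured on the CD8 cells. From NEG to DP cells 17.2% of all genes rose and 16% fell in yfp, 21.4% and 20% in DKO, and 17.6% and 15.7% in Ebi3L cells. Of 8 receptor genes 2 rose and 1 fell from NEG to DP in yfp cells, 4 rose and 1 fell in DKO and 3 rose and 1 fell in Ebi3L cells, with medians of 1.70, 2.30 and 1.92, the same with genes at 0 set to their bound. Ccr8, the receptor of Ccl1, rose by 6.13 ± 0.74, 7.17 ± 1.40 and 4.04 ± 0.78. Of other ligands 2 of 7 measured rose from NEG to DP in yfp cells, Ccl9 and Cxcl13, a B cell attractant. Ccl9 was 25.6, 3.91 and 37.3 CPM in the DP libraries and 0 in the 3 NEG libraries (adjusted p = 7.2e-04). Of the 22 factors 5 rose and 6 fell in yfp, 7 rose and 6 fell in DKO, and 5 rose and 7 fell in Ebi3L cells in that comparison, with Irf8 at 2.86 ± 0.86, 2.68 ± 0.28 and 3.04 ± 0.25.

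Genotype of the Tregs was set against yfp within each CD8 population, with batch as a term. Over the 15 comparisons edgeR called 0 of 93 pairs of member and comparison, limma 0 and DESeq2 6, and 17 pairs had an unadjusted p under 0.05. The matching shares of all genes for DESeq2 and for the unadjusted p are not given here, so these counts have no background. By edgeR few genes of any kind were called: 0.00811% for Il10 in NDLN cells, 0.00775% for each of DKO, Il10 and Ebi3L in INT cells, and 0.0% in the other 11 comparisons. The 3 differences of the NEG to DP step from yfp also called 0 members by edgeR and DESeq2 and 0.0% of genes by edgeR, with 1 member at an unadjusted p under 0.05. The smallest p among these pairs was that of Ccl1 in SP cells, at 16.9, 27.9 and 87.4 CPM in yfp and 270.3, 134, 153 and 174 CPM in DKO mice, without overlap.

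That difference of Ccl1 was 2.92 ± 0.44 with an adjusted p of 0.075 by edgeR and 1.6e-05 by DESeq2. Over its leave-one-source-out fits the edgeR adjusted p ran from 8.2e-04 to 0.438, and without the batch term it was 0.792 at a log2 difference of 1.82. Within batch 1 alone, SP libraries stood at 16.9 and 27.9 CPM in yfp and at 270.3, 153 and 174 CPM in DKO mice. Ebi3L libraries of SP cells were also above yfp libraries, at 128, 475 and 597 CPM, a difference of 2.49 ± 0.44 (adjusted p = 0.223 by edgeR). With set as a block in place of batch the adjusted p was 0.094 for DKO and 0.033 for Ebi3L, the only call of that fit. The first of the 3 Ebi3L libraries is of batch 1 and the others of batch 3, where the yfp library stood at 87.4 CPM. Both contrasts use the same 3 yfp libraries.

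In the node Ccl4 was 29.4, 32.2 and 12.6 CPM in yfp, 3.75, 2.76, 1.45 and 5.31 CPM in DKO, 3.28 and 3.27 CPM in Il10 and 23.5, 10.6 and 37.2 CPM in Ebi3L mice. All DKO and Il10 libraries lay below all yfp and Ebi3L libraries. The difference from yfp was -3.00 ± 0.56 (adjusted p = 0.210 by edgeR and 2.1e-04 by DESeq2) in DKO and -2.93 ± 0.77 (adjusted p = 0.935) in Il10 mice.

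Across libraries the members moved together to different degrees, given here as descriptions of log2(CPM + 1) with no test, since libraries of a source share a batch and set. Over the 60 CD8 libraries Pearson's r of Ccl3 with Ccl4 was 0.932, and 0.796 after group means were removed. Within groups r was 0.678 for Ccl1 with Xcl1, 0.618 for Ccl4 with Ccl5 and -0.023 for Xcl1 with Cxcl10. In the 30 Treg-series libraries r of Ccl3 with Ccl4 was 0.950, but 0.183 after group means were removed. The genes most like Ccl3 over the CD8 libraries were Ccl4, Tnfrsf9 (0.921) and Aldoa (0.914), those most like Ccl4 were Ccl3, Ifng (0.907) and Rgs1 (0.883), and those most like Ccl5 were Gimap7 (0.841), Gng2 (0.835) and Ccr2 (0.834). For Xcl1 they were Pdcd1lg2 (0.893), Csf2 (0.872) and Tnfrsf18 (0.865), for Ccl1 Penk (0.947), AI836003 (0.94) and Cd70 (0.938), and for Cxcl10 Phf11b (0.759), Soat2 (0.74) and 5430427O19Rik (0.74). In Tregs the closest gene to Ccl3 was Aldoa (0.966), to Ccl5 Crem (0.956), to Cxcl10 Ica1 (0.897) and to Xcl1 Ak4 (0.744).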

How the data were processed

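RNA sequencing libraries of sorted mouse T cells were analysed, 30 in the Treg series (SMART-Seq v4) and 60 in the CD8 series (SMART-Seq v3). The deposited count table holds whole-number counts for each gene symbol, and the authors used STAR, featureCounts of Subread, mm10 and limma, per the submitters' processing notes. The authors' deposited log2 values cover filtered genes of each series. They hold 5 of the 8 members in the Treg series, without Xcl1, Ccl20 and Ccl22, and 7 in the CD8 series. Limma could test no others. No source used here names versions, annotation or strand setting. Each column belonged to a sample, and the Treg and CD8 series were never tested against each other.

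CPM is the count divided by the library total, times 1e6. The test was edgeR 4.0.16 (R 4.3.3), quasi-likelihood F test with TMM scaling, filterByExpr and Benjamini-Hochberg adjustment over all genes tested, with batch as a term. In the Treg series the batch is a block. Same-batch libraries deviated together in all 135 pairs, with a lowest correlation of 0.107 and a median of 0.259. CD8 libraries of 1 source also deviated together, with median correlations of 0.534 in yfp, 0.25 in DKO and 0.357 in Ebi3L mice. The main tests between CD8 populations had batch and not source as a term. They left this pairing out, and it entered only the alternative fit with source as a block. Alternatives were DESeq2 1.42.0, no filter, blocks, limma 3.58.1 on the deposited values, and leaving out single replicates. Limma had no batch term. The deposited values of the Treg series are said to be batch adjusted, and limma's p-values do not account for such an adjustment. Limma was not run on the differences of the NEG to DP step between genotypes. EdgeR and DESeq2 were also run on counts simulated for the Treg design, with known changes in tumour DN Tregs and no batch effect. The CD8 designs and limma were not simulated. Beside the 8 members, the text names at most 3 called genes of each list with the largest change, and the 3 genes most like a member. The members and lists were chosen with earlier results of these data known. The counts over the 12 sources were chosen after values were seen. Values of 2 genes of the receptor and marker lists are not reported here.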

Additional observations from a re-analysis of the deposited data

Results flagged for a closer look

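In the groups of 4 libraries, which are all of DKO mice, 33 combinations of member and group were tested for a library far from the other three. The rule marks about 1 in 20 by chance for normal values only, and skewed CPM values with zeros are not of that kind. There were 4, which cannot be set against a chance rate. Ccl1 was 11.2 CPM in the fourth NEG library and 0 in the others. Ccl1 was 107 CPM in the second INT library, where the next highest was 6.62 CPM. Xcl1 was 1961 CPM in the third DP library, where the others lay between 274 and 497 CPM, and the same library held the highest DP level of Ccl1, Ccl3 and Ccl4 in that genotype. Cxcl10 was 36.7 CPM in the third NEG library, and 13.9 to 17.1 CPM in the others.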

How the results depend on the processing

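Of 355 pairs of member and comparison in 51 comparisons, 46 were called, and 17 of these were called in every alternative. The alternatives were tallied for the called pairs and a chosen list of uncalled pairs, and not for all 355. Among these, 573 values stayed on the same side of the threshold, 71 lost and 43 gained a call, and 0 reversed. DESeq2 called 1 pair among tumour Tregs (0 with edgeR), 12 among naive cells (6), 1 for node against naive cells (0), 8 in yfp (4), 12 in Ebi3L (7) and 6 between genotypes (0), and limma 10 among naive cells. With no filter on low counts there were 2 calls in yfp, 26 in Ebi3L and 27 between genotypes. The cause was not tested. Shares of all genes called in these alternative fits are not given here, so their counts of member calls carry no reading about the members. Without the library of highest Lyz2 there was 1 call among tumour Tregs. Without the batch block the node calls went from 6 to 3, and with set as a block there was 1 call between genotypes. Source as a block gave 3 calls in yfp, 11 in DKO and 6 in Ebi3L cells, against 4, 10 and 7. Leaving out 1 replicate gave 0 to 2 calls among tumour Tregs, 0 to 1 for differences between contrasts, 0 to 7 in yfp, 6 to 9 in DKO, 1 to 3 in Ebi3L and 0 to 2 between genotypes. Ccl20 and Ccl22 were at 0 in most CD8 libraries, where no difference was detectable at this depth.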
